A study of Drosophila melanogaster with 54 samples.

Results

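Steady RNA levels in eggs laid by mothers that lack PAN GU were compared with those in wild-type eggs of Drosophila melanogaster, transcript by transcript. The transcripts compared were the 5839 of the 5842 listed in the RNA and footprint table whose mean over its 6 RNA libraries was at least 1 RPKM (reads scaled to coding length and to library size). The 3 listed transcripts outside that limit were mgl, Msp300 and RhoGAP100F, with means of 0.682, 0.221 and 0.958 RPKM, and the nearest inside it were peb and FASN1 at 1.19 RPKM and bchs at 1.4 RPKM. Of 54 libraries in the whole study, the comparison used 4: eggs of wild-type OregonR females and eggs of png1058/png1058 females, each with 1 RNA library made without and 1 made with cycloheximide, a drug that stalls ribosomes. A pair of RNA libraries of OregonR stage 14 oocytes, the mature oocytes before activation, entered the same fit. All females that laid eggs were virgins kept with spermless twine (HB5) males, so the eggs were activated but not fertilised, and they were collected over 2 hours, at an age of the mothers that the labels do not give. The oocytes came from females 4 days old and were selected by hand from ovaries in the polysome part of the study. For the RNA libraries the labels state selection for poly(A) and random fragmentation, and nothing on how oocytes were isolated.

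PAN GU is a serine-threonine kinase of the female germline, made of the catalytic subunit PNG with PLU and GNU, and it is switched on at egg activation, when a mature oocyte leaves its meiotic arrest. It is needed for the translation of many maternal mRNAs, among them those of Cyclin A and Cyclin B, which drive the early nuclear divisions, and of Smaug, an RNA-binding repressor that brings the CCR4-NOT deadenylase to maternal mRNAs and so starts their removal. Eggs that lack PAN GU replicate DNA without entering mitosis and keep many maternal mRNAs that wild-type eggs clear. In an unfertilised egg there is no zygotic transcription, so the RNA measured here was made by the mother before activation.

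Values below are given as pairs, the library without cycloheximide first and the one with it second, and a difference is png eggs minus wild-type eggs in log2(RPKM + 1). A transcript is called higher or lower where limma's moderated test, with cycloheximide state as a term and Benjamini-Hochberg adjustment over all 5839 transcripts, gave an adjusted p under 0.05, two-sided. The RNA libraries held between 12173714 and 17432993 reads in coding sequence, as recovered from the smallest steps of the RPKM values. The libraries of a group differed by more than sampling noise and were counted as 2 libraries each: over transcripts, the log2 difference with minus without cycloheximide had an SD of 0.158 in eggs, 0.0814 in png eggs and 0.125 in oocytes. Nothing in the labels says that both states came from separate collections, so p-values measure the spread between these libraries, which may be technical. Genotype, strain background and collection cannot be told apart here, since each genotype is 1 strain. Because RNA was selected by its poly(A) tail and no spike-in was used, fewer copies of an mRNA and a shorter tail cannot be told apart either, and every level is relative to the rest of its library. Few markers of other cell types were among the transcripts compared. The counts were 0 of 9 for sperm and accessory gland, and 1 of 26 for muscle, gut, fat body and nerve. For follicle cells and eggshell, 2 of 22 were compared. Every listed transcript had a value above 0 in all 12 libraries, footprints included. A marker absent from any of them could not be listed, so the counts cannot show that these cells were lacking. The eggshell gene Cp15 stood at 4181 and 7628 RPKM in the oocyte libraries, at 8.07 and 7.44 RPKM in eggs and at 13.7 and 10.2 RPKM in png eggs, so follicle cell RNA was present in the oocyte libraries and near absent from both kinds of egg.

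Between png eggs and wild-type eggs the RNA level of many transcripts differed by a little and that of few by much. Of the 5839 transcripts, 3091 (52.9%) were called, 1848 higher (31.6%) and 1243 lower (21.3%) in png eggs, and 3412 had an unadjusted p under 0.05. The median change of a called transcript was 1.335-fold among the higher and 1.269-fold among the lower, and 1352 of the higher and 1090 of the lower differed by less than 1.5-fold. At least 2-fold in both cycloheximide states, 55 transcripts were higher (0.942%) and 38 were lower (0.651%), and all of these were called. With libraries centred on their median that balance turned, to 36 higher and 44 lower. Across transcripts, the difference without cycloheximide followed the difference with it (Pearson's r = 0.9, Spearman's rho = 0.862 over 5839 transcripts, which are not independent replicates), and the sign was the same in 83.6%. The SD of the difference between genotypes was 0.392 without and 0.419 with cycloheximide, beside the SDs of 0.158 and 0.0814 between the libraries of eggs and of png eggs.

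The balance of higher and lower calls moved with the scaling of the libraries. The median difference over all transcripts was 0.05 on the RPKM as deposited, and 59.79% of the calls were higher. With each library centred on its median, 1328 were higher and 1823 lower, so that 42.15% of the calls were higher, and quantile normalization gave 1452 higher and 1633 lower (47.07%). Under both scalings 1282 of the higher and 1168 of the lower calls remained with their direction. When the footprint libraries joined the fit, 252 were called higher and 108 lower, 6.17% in all, and 249 transcripts were higher and 89 lower in every one of 16 alternative analyses of all transcripts. Without the png library made without cycloheximide 1728 transcripts were called, and without the one made with it 1699.

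**Figure D1:**
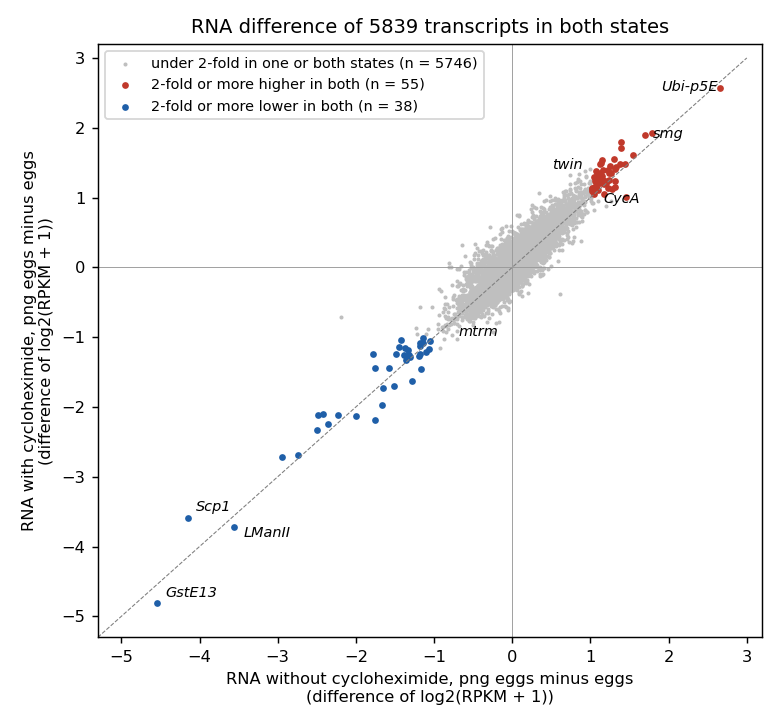
Difference in RNA between png eggs and wild-type eggs for each of the 5839 transcripts, in log2(RPKM + 1), without cycloheximide on the horizontal axis and with it on the vertical axis. Transcripts at least 2-fold higher in both states (55) are red and those at least 2-fold lower in both (38) are blue; most others lie close to 0, and the lowest points, at differences of -4.54 and -4.82, belong to GstE13.

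The 12 largest rises were led by a ubiquitin gene, an uncharacterised gene and smaug. The transcript of smaug (smg), the repressor that PAN GU is known to let through to translation, stood at 352.5 and 378.4 RPKM in oocytes, at 232.1 and 211.6 RPKM in eggs and at 752.9 and 790.6 RPKM in png eggs. Both png eggs lay above both oocytes, and both oocytes above both eggs, with no overlap. The difference between png eggs and eggs was 1.795 ± 0.07 (SE) in log2, 3.471-fold, with a limma adjusted p of 2.88e-08 from 2 libraries a group. It kept its direction but not its call when the footprint libraries joined the fit (adjusted p = 0.0641 in limma).

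Ubi-p5E, a polyubiquitin gene, had the largest rise, from 11.9 and 13.0 RPKM in eggs to 80.3 and 82.2 RPKM in png eggs, with 21.4 and 18.6 RPKM in oocytes. The log2 difference was 2.615 ± 0.10 (SE; limma adjusted p = 1.217e-08). Its repeats are nearly the same as those of the other polyubiquitin gene, Ubi-p63E, so how reads were shared between them leaves its level uncertain. CG15820, for which no role is given here, stood at 21.66 and 19.86 RPKM in eggs and at 77.03 and 78.42 RPKM in png eggs, a log2 difference of 1.86 ± 0.08 (SE; limma adjusted p = 4.067e-08). Its oocyte level, 24.21 and 21.96 RPKM, was close to that of the eggs, so the png eggs alone stood high.

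The transcript of nito, an RNA-binding cofactor of m6A methylation, was at 72.9 and 69.2 RPKM in oocytes, 36.5 and 29.2 RPKM in eggs and 97.4 and 103.9 RPKM in png eggs. It differed by 1.59 ± 0.09 (SE) in log2 between the kinds of egg, and the eggs were the low group. Polr3B, a large subunit of RNA polymerase III, was at 12.1 and 11.4 RPKM in eggs and at 32.0 and 32.7 RPKM in png eggs, beside 13.7 and 13.45 RPKM in oocytes. Here oocytes and eggs lay together and png eggs above them. GstD3, a glutathione S-transferase, stood at 46.5 and 43.8 RPKM in eggs and at 123.0 and 123.9 RPKM in png eggs, with 62.1 and 55.3 RPKM in oocytes. The other members of the 12, stac (a gene of tracheal tube fusion), pst (a gene needed for memory), hoe1, CG18048, CG11655 and CG5194, differed by between 1.35 and 1.58 in log2. All of the 12 but smg were called higher in every one of the 16 alternative analyses.

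The largest falls were deeper than the largest rises. GstE13, another glutathione S-transferase, stood at 33.8 and 35.0 RPKM in oocytes. It stood at 32.9 and 40.0 RPKM in eggs, and at 0.461 and 0.4545 RPKM in png eggs, which is 4 and 5 recovered reads. The png eggs were thus near absence and oocytes and eggs overlapped, with a log2 difference of -4.68 ± 0.11 (SE; limma adjusted p = 4.08e-10) between the kinds of egg. Scp1, which encodes a sarcoplasmic calcium-binding protein, was at 37.1 and 28.1 RPKM in oocytes, 31.5 and 28.4 RPKM in eggs and 0.839 and 1.434 RPKM in png eggs, a log2 difference of -3.87 ± 0.16 (SE). LManII, a lysosomal alpha-mannosidase, was at 12.01 and 13.26 RPKM in oocytes, 13.16 and 13.35 RPKM in eggs and 0.205 and 0.0898 RPKM in png eggs, where 9 and 5 reads were recovered. CG43163 was at 7.05 and 5.79 RPKM in eggs and at 0.0483 and 0.0305 RPKM in png eggs. In both states 3 transcripts, GstE13, LManII and CG43163, stood under 5% of their level in eggs. Every listed transcript had a value above 0 in each library, so a transcript wholly missing from png eggs could not be counted here. None of these 3, GstE13, LManII and CG43163, lies on the X chromosome with png: they are on chromosome arms 2R, 2L and 3L.

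The other large falls kept a measurable level. bam, which drives germline cysts out of the stem cell state, was at 38.4 and 38.3 RPKM in oocytes, 48.1 and 40.9 RPKM in eggs and 8.13 and 8.75 RPKM in png eggs. Its log2 difference was -2.265 ± 0.10 (SE; limma adjusted p = 4.067e-08), and png eggs lay below both other groups. rig, a gene of the ecdysone response in larvae, was at 73.4 and 66.6 RPKM in eggs and 13.6 and 13.3 RPKM in png eggs, with 74.5 and 68.7 RPKM in oocytes. AcCoAS, which makes acetyl-CoA from acetate, fell from 36.5 and 31.8 RPKM in eggs to 5.705 and 6.546 RPKM in png eggs, beside 30.3 and 33.8 RPKM in oocytes. Hsp22, a mitochondrial small heat shock protein whose gene overlaps Hsp67Bb, stood at 40.15 and 44.6 RPKM in eggs and 9.34 and 9.42 RPKM in png eggs; the overlap leaves its level uncertain. The other members of the 12 were meso18E, named for its expression in mesoderm, the carboxylesterase alpha-Est10, CG5245 and CG7565, with differences between -2.72 and -1.98. In each of the 12 the png eggs lay below both oocyte libraries as well, and each was called lower in every one of the 16 alternative analyses.

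**Figure D2:**
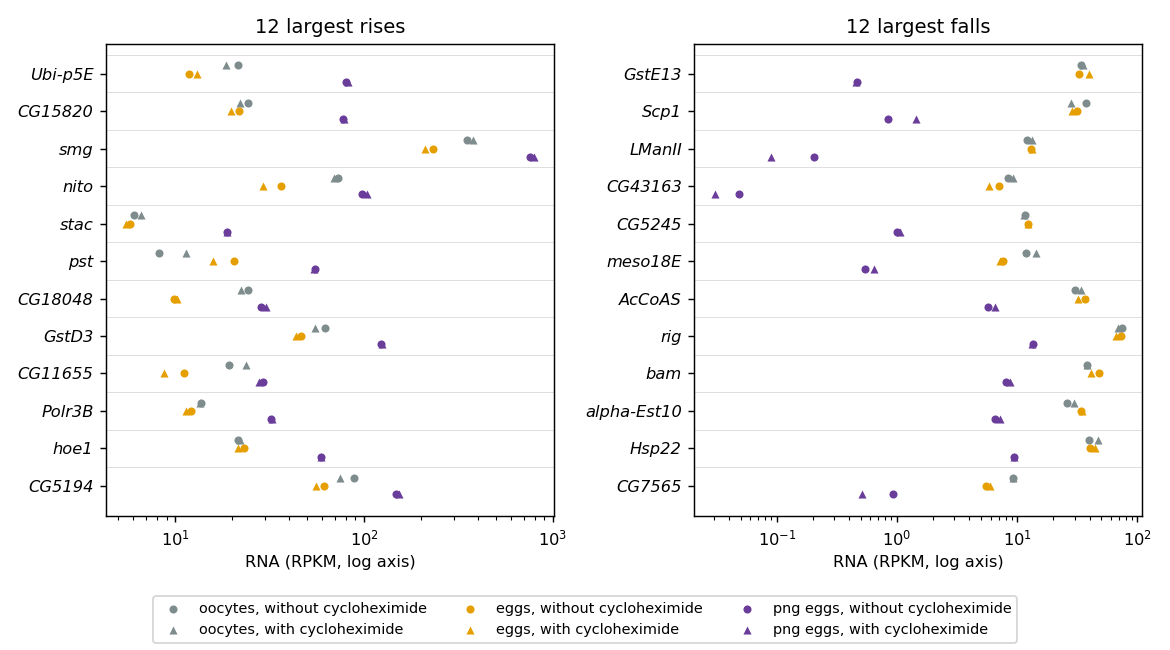
RNA level of the 12 largest rises and the 12 largest falls in png eggs, in RPKM on a log axis, with 1 point per library (oocytes, wild-type eggs and png eggs, without and with cycloheximide). For GstE13 the png eggs sit at 0.461 and 0.4545 RPKM while oocytes and eggs lie between 32.9 and 40.0 RPKM; for smg the png eggs sit at 752.9 and 790.6 RPKM and eggs at 232.1 and 211.6 RPKM.

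Further genes at least 2-fold apart in both states, named here after their values were seen, included regulators with known germline or early roles. The transcript of tut, the partner of Bam in the male germline, was at 27.9 and 24.5 RPKM in eggs and at 9.73 and 11.4 RPKM in png eggs (-1.23 ± 0.11 SE in log2). That of c(3)G, a structural protein of the synaptonemal complex, was at 24.0 and 27.0 RPKM in eggs and at 6.889 and 6.117 RPKM in png eggs (-1.82 ± 0.11 SE), and the oocytes, at 16.4 and 15.7 RPKM, lay between. Pxt, a peroxinectin-like enzyme needed for follicle maturation, was at 417.8 and 421.6 RPKM in eggs and 183.4 and 178.4 RPKM in png eggs. Among the rises, scra, the anillin of the contractile ring, went from 43.6 RPKM in both libraries of eggs to 99.96 and 101.2 RPKM in png eggs (1.19 ± 0.07 SE). Mi-2, a chromatin remodeler, went from 53.6 and 43.1 RPKM to 118.3 and 122.3 RPKM, and Su(H), the transcription factor of the Notch pathway, from 16.2 and 14.1 RPKM to 39.3 and 38.7 RPKM. In none of these 6 genes did the libraries of png eggs and of eggs overlap, which the 2-fold rule by which they were picked makes likely beforehand. Of all 5839 transcripts, both png libraries lay above both egg libraries for 2672 and below both for 1941. The 55 rises had a median log2 difference of 1.21 and the 38 falls one of -1.41, and 4 of the 93 transcripts had no gene symbol in the reference table.

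The transcripts of the kinase subunits differed little, and none was called in the 6-library fit. The png transcript stood at 112.9 and 114.1 RPKM in oocytes, 101.5 and 101.9 RPKM in eggs and 92.1 and 96.9 RPKM in png eggs, a log2 difference of -0.11 ± 0.06 (SE; limma adjusted p = 0.167). The png1058 allele was not described in the labels beyond its name, so this level does not check the genotype. Footprints on png were at 18.09 and 10.31 RPKM in eggs and 173.3 and 188.8 RPKM in png eggs. Their log2 difference was 3.63 (adjusted p = 9.737e-06 in limma). In RNA, plu was at 109.2 and 119.8 RPKM in eggs and 96.9 and 114.8 RPKM in png eggs (adjusted p = 0.336 in limma). RNA of gnu was at 521.7 and 554.6 RPKM in eggs and 481.0 and 486.3 RPKM in png eggs (adjusted p = 0.0754 in limma). Of the 13 measured genes of the PNG complex and egg activation, 4 (30.77%) were higher and 3 (23.08%) lower, close to the 31.65% and 21.29% of all transcripts. Their median was -0.10 beside 0.05 over all transcripts. The list also holds smg and bam, described above. smg is among the 4 higher. bam, whose role given above lies in germline cysts rather than in activation, is among the 3 lower. sra, the calcipressin that egg activation needs, was at 37.6 and 38.45 RPKM in eggs and 56.2 and 57.6 RPKM in png eggs (0.57 ± 0.07 SE; adjusted p = 7.62e-05 in limma). cort, a female-specific activator of the anaphase-promoting complex, was at 56.3 and 50.7 RPKM in eggs and 68.15 and 66.0 RPKM in png eggs (0.32 ± 0.07 SE). wisp, the poly(A) polymerase of late oogenesis, was lower by a small amount, 330.7 and 353.9 RPKM in eggs against 301.1 and 296.2 RPKM in png eggs (-0.20 ± 0.06 SE; adjusted p = 0.0231 in limma). wisp lost its call without either png library or without the egg library made with cycloheximide (adjusted p between 0.13 and 0.331 in limma), and cort lost its call without the png library made with it (adjusted p = 0.0525 in limma). With libraries centred on their median, png (-0.21) and gnu (-0.258) were called lower, and 6 of the list were lower. gnu was also called lower with the 4 egg libraries alone (adjusted p = 0.0431 in limma) or without either oocyte library (adjusted p of 0.0423 and 0.0411 in limma), and plu without the egg library made without cycloheximide (adjusted p = 0.0328 in limma). Without the png library made with cycloheximide 2 of the list were higher, and without each png library in turn 1 was lower.

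Cell cycle transcripts held members that changed in either direction, in shares close to those of all transcripts. Of 41 measured genes, 16 (39.02%) were higher and 9 (21.95%) lower, beside 31.65% and 21.29% of all transcripts, and their median was 0.12 beside 0.05. With libraries centred on their median the counts were 11 higher and 12 lower, and without the png library made with cycloheximide 10 were higher. CycA was at 521.3 and 565.6 RPKM in oocytes, 372.8 and 359.1 RPKM in eggs and 781.3 and 812.4 RPKM in png eggs. CycB was at 943.3 and 996.5 RPKM in oocytes, 656.4 and 654.0 RPKM in eggs and 1298 and 1366 RPKM in png eggs. For both mitotic cyclins the eggs were lowest, the png eggs highest and the oocytes between, with log2 differences of 1.121 ± 0.07 and 1.022 ± 0.08 (SE) between png eggs and eggs. CycB3, the cyclin of anaphase onset, differed from them in that its png eggs, at 129.1 and 130.9 RPKM, lay above the eggs, at 86.35 and 81.3 RPKM, but below the oocytes, at 145.2 and 146.4 RPKM.

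Kinases of the same list went in different directions. Checkpoint kinases, of which grp, tefu and mei-41 are named here after their values were seen, differed among themselves: lok (Chk2) and grp (Chk1) were higher, tefu (ATM) was lower (-0.422; adjusted p = 0.00884 in limma) and mei-41 (ATR) was not called (0.012; adjusted p = 0.946 in limma). gwl, the Greatwall kinase, was at 84.3 and 74.25 RPKM in eggs and 169.5 and 173.5 RPKM in png eggs (1.11 ± 0.07 SE; adjusted p = 4.021e-07 in limma), beside 117.7 and 114.9 RPKM in oocytes. lok, the checkpoint kinase Chk2, was at 164.5 and 165.7 RPKM in eggs and 327.0 and 334.9 RPKM in png eggs (1.00 ± 0.06 SE). stg, the Cdc25 phosphatase of mitosis, was at 132.2 and 132.5 RPKM in eggs and 203.0 and 212.0 RPKM in png eggs, a log2 difference of 0.64 ± 0.06 (SE). Its meiotic counterpart twe went the other way, from 78.2 and 72.7 RPKM to 60.4 and 62.8 RPKM (-0.29 ± 0.07 SE; adjusted p = 0.00439 in limma). fzy, the Cdc20 of the anaphase-promoting complex, rose from 73.1 and 74.7 RPKM to 93.3 and 93.6 RPKM, which is under the oocyte level of 132.8 and 120.9 RPKM. The largest fall of the list was mtrm, the inhibitor of Polo in the oocyte, at 582.8 and 533.2 RPKM in oocytes, 513.8 and 519.4 RPKM in eggs and 292.9 and 292.4 RPKM in png eggs. Its log2 difference was -0.82 ± 0.07 (SE; adjusted p = 3.977e-06 in limma), and polo itself, at 262.7 and 260.3 RPKM in eggs and 242.6 and 246.2 RPKM in png eggs, was not called (adjusted p = 0.194 in limma; -0.202 and called lower with libraries centred on their median). twe lost its call without the png library made without cycloheximide (adjusted p = 0.143 in limma).

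Of 46 measured repressors and components of the decay machinery, 17 (36.96%) were higher and 9 (19.57%) lower, with a median of 0.01. These shares were close to those of all transcripts, 31.65% and 21.29%, with a median of 0.05. The scaling mattered for the falls, of which there were 16 with libraries centred on their median, and 2 without the png library made without cycloheximide. Without the png library made with cycloheximide 11 were higher. twin, the deadenylase subunit of CCR4-NOT, was at 113.1 and 114.0 RPKM in oocytes, 82.0 and 71.9 RPKM in eggs and 171.6 and 176.5 RPKM in png eggs, a log2 difference of 1.17 ± 0.07 (SE; adjusted p = 3.835e-07 in limma). DCP2, the decapping enzyme, was at 25.1 and 18.7 RPKM in eggs and 42.65 and 48.1 RPKM in png eggs, and Rrp6, a nuclease of the nuclear exosome, at 33.3 and 34.5 RPKM in eggs and 68.1 and 67.7 RPKM in png eggs. All 3 stood higher in png eggs than in oocytes, with no overlap. The translational repressors cup and tral went down: cup from 201.6 and 185.6 RPKM in eggs to 139.1 and 147.7 RPKM in png eggs (-0.43 ± 0.07 SE), and tral from 1173 and 1056 RPKM to 724.3 and 768.7 RPKM (-0.58 ± 0.09 SE). tral lost its call without the png library made without cycloheximide (adjusted p = 0.059 in limma). Their RNA helicase partner me31B, at 2132 and 2183 RPKM in eggs and 2021 and 2031 RPKM in png eggs, was not called (adjusted p = 0.508 in limma), but under quantile normalization it was called higher (0.372; adjusted p = 7.26e-05 in limma). brat, a repressor that acts with Pumilio and Nanos, rose from 94.7 and 77.0 RPKM to 126.3 and 128.8 RPKM, while pum itself, at 65.1 and 60.1 RPKM in eggs and 66.0 and 65.9 RPKM in png eggs, was not called (adjusted p = 0.425 in limma).

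Patterning and germ plasm transcripts were mostly higher or not called: 19 of 32 measured (59.38%) were higher and 1 (3.125%) was lower, beside 31.65% and 21.29% of all transcripts. The median was 0.25, and 14 were higher and 2 lower with libraries centred on their median. Without the png library made without cycloheximide 12 were higher. nanos, the posterior repressor that Smaug acts on, was at 224.5 and 228.5 RPKM in oocytes, 324.1 and 275.6 RPKM in eggs and 498.4 and 528.1 RPKM in png eggs (0.78 ± 0.08 SE; adjusted p = 1.485e-05 in limma). For nanos the oocytes were thus the low group and the eggs lay between. Tl, the receptor of dorsal-ventral patterning, was at 44.2 and 46.7 RPKM in oocytes, 37.1 and 28.9 RPKM in eggs and 67.8 and 74.4 RPKM in png eggs (1.09 ± 0.11 SE). tub, the adaptor on the same pathway, was at 40.18 and 41.04 RPKM in eggs and 72.8 and 71.1 RPKM in png eggs, and exu, which localises bicoid mRNA, at 480.5 and 416.6 RPKM in eggs and 782.2 and 770.4 RPKM in png eggs.

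The anterior and posterior transcripts hb, bcd, osk, cad and gcl changed less than nanos, Tl, tub and exu. hb was at 71.2 and 55.8 RPKM in eggs and 88.4 and 93.3 RPKM in png eggs (0.52 ± 0.12 SE), and bcd at 18.6 and 15.3 RPKM and 25.5 and 22.5 RPKM (0.48 ± 0.13 SE). osk, which assembles the germ plasm, was at 285.6 and 249.5 RPKM in eggs and 315.7 and 317.7 RPKM in png eggs, cad, a posterior transcription factor, at 89.3 and 89.9 RPKM and 105.7 and 107.1 RPKM, and gcl, needed for pole cell formation, at 172.4 and 167.9 RPKM and 189.2 and 192.3 RPKM. These 3 were called with differences between 0.16 and 0.25, and none of the 3 was called with libraries centred on their median. All 3 lost their call without the png library made without cycloheximide (adjusted p between 0.0568 and 0.238 in limma), as did bcd (adjusted p = 0.122 in limma), and osk and gcl also without the png or the egg library made with it (adjusted p between 0.168 and 0.277 in limma). pgc, the repressor of transcription in pole cells, was at 688.4 and 653.7 RPKM in eggs and 665.0 and 686.6 RPKM in png eggs and was not called (adjusted p = 0.918 in limma). Of 10 maternal mRNAs known to be cleared after activation, which hold nanos, stg, osk, gcl, hb, twe and pgc from above, 6 were higher and 1, twe, lower, with a median of 0.20, and 3 were higher without the egg library made with cycloheximide, without the png library made with it or with libraries centred on their median. Hsp83, the classic mRNA cleared with the help of Smaug, stood at 1389 and 1316 RPKM in oocytes, 1163 and 1107 RPKM in eggs and 1091 and 1139 RPKM in png eggs, where eggs and png eggs overlapped (-0.03 ± 0.09 SE; adjusted p = 0.829 in limma). Under quantile normalization Hsp83 was called higher (0.266; adjusted p = 0.000452 in limma). Most of these mRNAs named here were not lower in wild-type eggs than in oocytes. For eggs minus oocytes, the log2 difference was 0.41 for osk, 0.40 for nanos, 0.39 for gcl and 0.18 for pgc. It was 0.02 for hb and for twe, -0.22 for stg and -0.25 for Hsp83. In the inputs the median of the list was 0.01. The count of higher calls thus does not show a lack of clearance. Among all transcripts 31.65% were higher and 21.29% lower, the shares to set beside these 10 mRNAs and the 5 transcripts that follow. Those 5 were the ones measured of 27 listed zygotic activators and early zygotic genes. In these unfertilised eggs their RNA is maternal. When the footprint libraries joined the fit, 0 of the 10 and 0 of the 5 were called. zld, the activator of the zygotic genome, rose from 76.1 and 66.0 RPKM to 88.6 and 91.2 RPKM (0.34 ± 0.09 SE), and 4 of the 5 measured zygotic activators and early zygotic genes were higher and none lower; without the egg library made with cycloheximide 2 were higher, and zld was not called (adjusted p = 0.0827 in limma).

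Transcripts of the piRNA pathway, which silences transposons in the germline, were higher in 12 of 21 measured cases (57.14%) and lower in 3 (14.29%). Among all transcripts 31.65% were higher and 21.29% lower. The median of the list was 0.30, beside 0.05 over all transcripts. Under either scaling 11 were higher and 7 lower. Without the png library made without cycloheximide 1 was lower, and without the egg library made with it 5. papi, a scaffold of piRNA trimming, was at 13.7 and 14.7 RPKM in oocytes, 10.05 and 8.89 RPKM in eggs and 22.15 and 24.8 RPKM in png eggs (1.22 ± 0.11 SE; adjusted p = 6.287e-06 in limma). AGO3, a PIWI protein of the ping-pong cycle, was at 50.15 and 48.3 RPKM in eggs and 100.8 and 97.3 RPKM in png eggs, with oocytes at 87.3 and 85.5 RPKM, and krimp, a Tudor protein that binds AGO3, went from 57.6 and 56.1 RPKM to 105.3 and 106.0 RPKM. The eggs were the low group for papi and AGO3, while for krimp oocytes, at 53.5 and 56.7 RPKM, and eggs were alike.

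Genes of centrosomes and the cytoskeleton, of chromatin and of DNA replication moved in both directions, as did all transcripts, with 31.65% higher and 21.29% lower. The shares higher and lower were 27.78% and 38.89% for centrosomes and the cytoskeleton. They were 17.78% and 24.44% for replication and repair, and 20% and 28% for histones and chromatin. The list of 36 centrosome and cytoskeleton genes had 10 higher and 14 lower, with 5 higher without the png library made with cycloheximide, and 4 lower without the one made without it or 8 without the one made with it. gammaTub37C, the maternal gamma-tubulin, was at 96.3 and 86.7 RPKM in oocytes, 104.2 and 92.3 RPKM in eggs and 45.6 and 42.8 RPKM in png eggs (-1.13 ± 0.06 SE; adjusted p = 2.683e-07 in limma). The other gamma-tubulin, gammaTub23C, went up, from 41.1 and 40.0 RPKM in eggs to 67.4 and 63.9 RPKM in png eggs (0.68 ± 0.07 SE). SAK, the kinase of centriole duplication, was at 15.2 RPKM in both egg libraries and at 27.5 and 28.35 RPKM in png eggs. Of 45 replication and repair genes 8 were higher and 11 lower: Orc1, of the origin recognition complex, went from 66.6 and 60.7 RPKM to 108.6 and 109.3 RPKM, while PCNA, the sliding clamp, went from 391.7 and 412.0 RPKM to 267.8 and 277.7 RPKM. Lower calls were 17 with libraries centred on their median, and higher calls were 5 without the png library made with cycloheximide. Of 25 histone and chromatin genes 5 were higher and 7 lower, or 3 and 4 lower without either png library in turn, and His3.3A, the replacement histone, was at 165.1 and 194.8 RPKM in eggs and 121.1 and 129.5 RPKM in png eggs (-0.515 ± 0.07 SE).

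The most one-sided list was that of the cytosolic ribosomal proteins. Of 85 measured, 80 were lower in png eggs and 0 higher, beside 21.3% and 31.6% of all transcripts, with a median of -0.51. Summed over the list, the level was 221600 and 199900 RPKM in oocytes, 202200 and 232400 RPKM in eggs and 149400 and 153600 RPKM in png eggs, so both png eggs lay below all other libraries. RpL9 was at 1915 and 2173 RPKM in eggs and 1247 and 1320 RPKM in png eggs (-0.67 ± 0.11 SE; adjusted p = 0.000546 in limma), and RpL32, often used as a stable reference, at 1901 and 2209 RPKM and 1290 and 1385 RPKM (-0.62 ± 0.12 SE; adjusted p = 0.00103 in limma). RpS10a, a copy of RpS10b whose reads may have been shared with it, was at 27.8 and 23.4 RPKM in oocytes, 5.79 and 1.49 RPKM in eggs and 0.494 and 0.519 RPKM in png eggs. The size of the fall depended on scaling: 81 were lower with libraries centred on their median, and 37 lower and 2 higher, with a median of -0.08, under quantile normalization, which makes the top of all libraries equal by construction. RpL32 lost its call without either png library (adjusted p of 0.106 and 0.0707 in limma), and RpL9 without the one made without cycloheximide (adjusted p = 0.0763 in limma). The count of lower members was 11 without the png library made without cycloheximide, 13 without the one made with it, 42 without the egg library made with it and 19 with the footprint libraries in the fit.

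**Figure D3:**
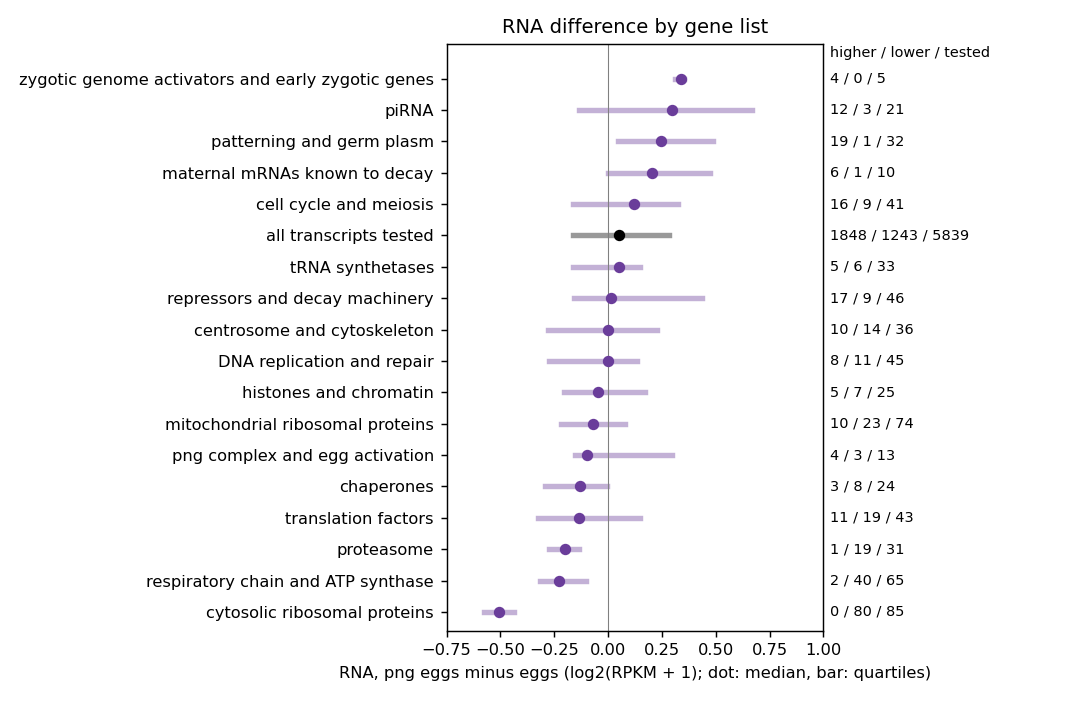
Median difference in RNA between png eggs and wild-type eggs, in log2(RPKM + 1), for each gene list, with bars from the lower to the upper quartile and the number called higher, called lower and tested beside each. Cytosolic ribosomal proteins lie lowest among the larger lists, with a median of -0.51 and 80 of 85 lower, and patterning and piRNA transcripts lie above the median of all transcripts, at 0.25 and 0.30.

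Short coding regions were more often lower. With the transcripts ranked by coding length and cut into 5 bins of equal number, 40.61% were lower and 16.52% higher in the shortest bin (75 to 744 bases), and 12.03% lower and 36.97% higher in the longest. The median differences from the shortest to the longest bin were -0.11, 0.03, 0.10, 0.13 and 0.12. Over 5738 transcripts Spearman's rho with coding length was 0.242, given as a description since all points share the same libraries. Coding length also followed the cycloheximide state within wild-type eggs, where the difference with minus without had a rho of -0.531, and much less so within png eggs, at 0.0405; its part in the differences between genotypes was not tested. Ribosomal proteins stood apart from other short transcripts in size: their median was -0.436 without and -0.576 with cycloheximide, while the shortest bin without them had medians of -0.0603 and -0.119, with 401 of 1081 (37.1%) lower.

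**Figure D4:**
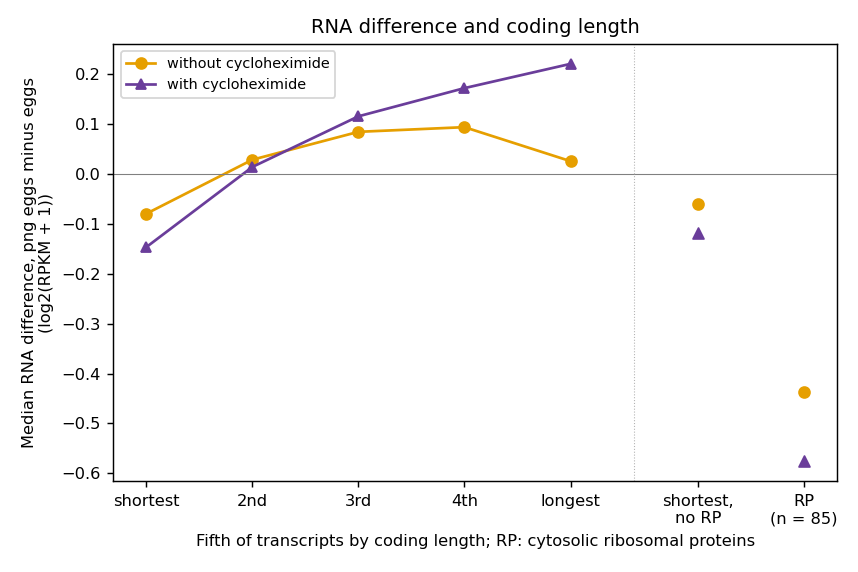
Median difference in RNA between png eggs and wild-type eggs, in log2(RPKM + 1), by bin of coding length (5 bins of equal number), without and with cycloheximide, and for cytosolic ribosomal proteins. The shortest bin lies below 0 in both states, at -0.0796 and -0.147, and the ribosomal proteins lie lower still, at -0.436 and -0.576.

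Ribosome footprints of the same kinds of egg, from 4 libraries that the RNA comparison did not use, fitted together with 2 of oocytes, show how far the ribosomes followed the RNA. In footprints 3884 transcripts were called (66.5%), 1727 higher (29.6%) and 2157 lower (36.9%), with a median of -0.13. Of the 1848 transcripts with higher RNA in png eggs, 1182 (63.96%) had lower footprints and 340 (18.4%) higher ones, with a median footprint difference of -1.346. Of the 1243 with lower RNA, 175 (14.08%) had lower and 518 (41.67%) higher footprints, with a median of 0.43. In each class, then, more transcripts had footprints that went against their RNA than with it. The 38 transcripts at least 2-fold lower in RNA differed from that, since 24 of them had lower footprints and 6 higher ones. Of the 55 at least 2-fold higher in RNA, 34 had lower and 11 had higher footprints.

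Single genes show the size of the opposition. Footprints on smg were at 1349 and 1092 RPKM in eggs and 11.1 and 12.7 RPKM in png eggs, a log2 difference of -6.56 (adjusted p = 8.179e-06 in limma), while its RNA was 3.471-fold higher. CycA footprints went from 4016 and 3765 RPKM to 123.3 and 142.4 RPKM, those of CycB from 7668 and 7178 RPKM to 392.9 and 470.9 RPKM, and those of twin from 447.8 and 390.1 RPKM to 17.3 and 16.25 RPKM. DCP2, Rrp6, tub and papi, all higher in RNA, had footprint differences between -5.94 and -5.21. The reverse held for mtrm, whose footprints stood at 134.7 and 190.2 RPKM in eggs and at 5183 and 4857 RPKM in png eggs (4.96 in log2; adjusted p = 1.35e-06 in limma) while its RNA was lower. gammaTub37C, with less RNA, went from 42.2 and 27.3 RPKM of footprints in eggs to 287.5 and 275.3 RPKM in png eggs. Some transcripts moved the same way in both readouts. CG15820 footprints were at 1.04 and 0.694 RPKM in eggs and 81.5 and 76.1 RPKM in png eggs, and those of GstD3 at 17.6 and 18.25 RPKM and 378.5 and 314.4 RPKM. GstE13 footprints were at 85.9 and 85 RPKM in eggs and 0.159 and 0.609 RPKM in png eggs, and those of LManII at 38.05 and 39.15 RPKM and 0.0628 and 0.301 RPKM. On the cytosolic ribosomal proteins the median footprint difference was -0.25, beside -0.13 over all transcripts.

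**Figure D5:**
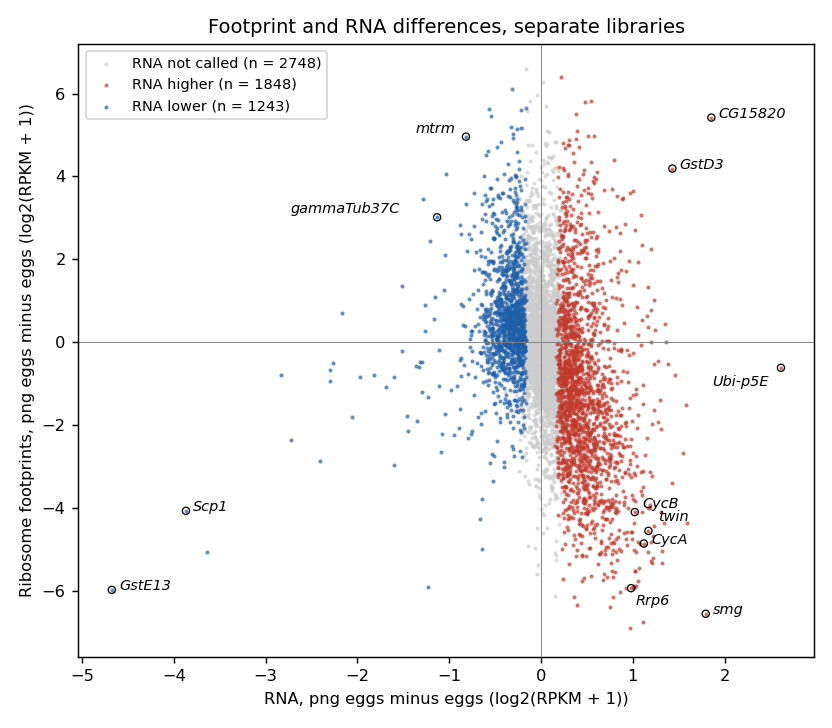
Difference in footprints (vertical axis) against difference in RNA (horizontal axis) between png eggs and wild-type eggs, both in log2(RPKM + 1), 1 point per transcript, with named transcripts marked. smg lies at lower right, with footprints 6.56 lower and RNA 1.795 higher, mtrm at upper left and GstE13 at lower left.

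Polysome gradients of wild-type oocytes and eggs gave another independent readout, the share of a transcript's mRNA found in medium and heavy polysomes. Over 4995 transcripts with such a share the medians were 35.5% and 34.2% in the 2 oocyte gradients and 26.9% and 27.7% in the 2 egg gradients. Transcripts with higher RNA in png eggs had medians of 33.0% and 32.9% in oocytes and 34.1% and 32.6% in eggs (n = 1571). Those with lower RNA had 39.9% and 36.7% in oocytes and 22.73% and 26.04% in eggs (n = 1105). So the polysomal median of the higher class was about the same at both stages, while that of the lower class was smaller in both egg gradients than in both oocyte gradients. For CycA the share was 31.39% in the first oocyte gradient and 68.45% in the first egg gradient, and for mtrm it was 74.12% and 11.84%.

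The unfractionated inputs of oocytes and eggs, again other libraries, compared these transcripts between the 2 stages in the wild type. Of 6381 genes tested there 218 (3.42%) were called, 192 lower (3.01%) and 26 higher (0.407%) in eggs, and 1719 were called without the second egg input. Both egg inputs lay below both oocyte inputs for 29.71% of the transcripts with higher RNA in png eggs, for 26.27% of those with lower RNA and for 26.9% of all 5499 transcripts measured. Both lay above for 15.14% of the first class and 25.25% of the second, beside 19.8% of all. Of the 49 transcripts at least 2-fold higher with an input value, 20 (40.82%) had both eggs below both oocytes, and of the 36 at least 2-fold lower 12 (33.33%) did. The median input difference, eggs minus oocytes, was -0.28 for the former and -0.29 for the latter, beside -0.09 over all 5499. The egg inputs differed from each other: for the class with higher RNA the median against the first oocyte input was -0.346 in the first egg input and -0.052 in the second. For the transcripts at least 2-fold higher these medians were -0.577 and -0.103, and for those at least 2-fold lower -0.472 and -0.183. The medians of -0.28 and -0.29 thus rest mainly on the first egg input. For smg the inputs were 278.9 and 281.6 RPKM in oocytes, beside 144.6 and 258.3 RPKM in eggs, and for CG15820 they were 34.8 and 34.5 RPKM and 19.2 and 21.7 RPKM. For both genes the eggs lay below the oocytes without overlap, as for 26.9% of all 5499 transcripts. Neither difference was called (adjusted p of 0.456 for smg and 0.242 for CG15820 in limma). CycA, at 687.5 and 551.7 RPKM in oocytes, beside 388.4 and 715.3 RPKM in eggs, overlapped.

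Beside the oocyte RNA libraries, which share the fit and the libraries with the comparison of eggs and cannot test it, the named rises fell into different orders. Between eggs and oocytes 35.2% of all transcripts were called, 19.7% higher and 15.4% lower in eggs, and between png eggs and oocytes 54.6%, 36.3% higher and 18.3% lower in png eggs. The eggs lay below the oocytes and the png eggs above them for smg (-0.72 for eggs minus oocytes and 1.08 for png eggs minus oocytes), CycA (-0.57 and 0.55), CycB (-0.56 and 0.46) and twin (-0.56 and 0.61). For AGO3 the png eggs were near the oocyte level, with -0.80 and 0.19, as for RnrS, a ribonucleotide reductase subunit, with -0.64 and 0.09. For nito the values were -1.10 and 0.50. The 12 largest falls differed little between eggs and oocytes in most cases: the value for eggs minus oocytes was 0.07 for GstE13, -0.11 for Scp1, 0.07 for LManII and -0.03 for rig, while meso18E had -0.73 and CG7565 -0.62.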

How the data were processed

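RNA and footprint levels were deposited by the authors as RPKM, per the file headers, in 1 table of transcripts without zeros (lowest value 0.0128). Gradient tables held each gene's fraction of mRNA per gradient part, deposited by the authors. TopHat 1.3.2, Bowtie, HTSeq, FastQC and the build dm3 are named in the submitters' processing notes, without roles. Names were matched for 5784 of 5842 transcripts. Tests used limma 3.58.1 (lmFit, eBayes with a trend) in R 4.3.3 on log2(RPKM + 1), which understates changes of low transcripts, and were tested on simulated data; matplotlib 3.10.9, scipy 1.17.1, numpy 2.4.6 and pandas 2.3.3 under python 3.11.15 served summaries and plots. Reads were recovered as whole multiples for 98.3% of transcripts. Replicate numbers are cycloheximide states (1 without, 2 with), so the replicate block is the cycloheximide term; same-numbered libraries did not deviate together (correlations -0.0817, -0.274 and 0.044 between groups). Members and gene lists were chosen with earlier results of these data known. Genes named are the 12 largest called rises and falls that changed the same way in both states, a fixed set of regulators, and up to 4 called members with the largest change per list; others are said to be chosen later. Polysomal shares and inputs are of lysates without puromycin.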

Additional observations from a re-analysis of the deposited data

Results flagged for a closer look

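Some transcripts differed in opposite directions without and with cycloheximide; the difference between the states was not tested. Hsp83 differed between png eggs and eggs by -0.091 in log2 without and by 0.04 with cycloheximide. For pgc the differences were -0.05 and 0.071. For yl, the yolk receptor of the oocyte, they were -0.27 and 0.022. None of the 3 was called in limma's 6-library fit over both states, while Hsp83 was called higher under quantile normalization and yl lower with libraries centred on their median.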

How the results depend on the processing

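The number of transcripts called between png eggs and eggs was 3094 and 3096 with 0.1 or 5 RPKM added, 3091 with no filter, 3016 at 10 RPKM or more, 3294 with 4 libraries, 3247 with no replicate block (1940 higher) and 2946 with recovered reads and voom weights, an alternative chosen after seeing the data. With all 12 libraries 360 were called (252 higher, 108 lower). The 12-library fit takes its spread from footprints as well as RNA. Leaving out 1 library gave 1699 to 3497 calls, 1081 to 2199 higher and 572 to 1359 lower. The median difference turned to -0.0522 with centred libraries and to -0.0224 after quantile normalization. At least 2-fold in both states, 34 were higher and 20 lower with 5 RPKM added, and 36 were higher and 44 lower with centred libraries. Eggs against oocytes gave 22 calls and png eggs against oocytes 290 with all 12 libraries, and the latter 1721 to 3909 with 1 library left out. Calls between inputs ranged from 190 to 1719 with 1 left out. Of 113 named transcripts 61 lost their call with all 12 libraries, and 38 kept theirs under all 16 alternatives. Quantile normalization made Hsp83 (0.266), me31B (0.372) and dhd (0.276) called higher; centring made png, gnu, polo and yl called lower, as were gnu with 4 libraries or without an oocyte library, plu without egg replicate 1 and yl without egg replicate 2. Of the transcripts not called, these reversed: plu to 0.034 without png replicate 1 (lowest -0.266), Hsp83 to 0.266 (quantile), 0.005 (without egg replicate 1) and 0.042 (without png replicate 1; lowest -0.093), yl to 0.019 (without png replicate 1; lowest -0.268), me31B to 0.372 (quantile), dhd to -0.036 (centred), pgc to -0.094 (centred), -0.06 and -0.01 (highest 0.081), and pum to -0.029 (centred), -0.019 (quantile) and -0.018 (without egg replicate 2; highest 0.17). The cause of these changes was not tested.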

Other observations

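Lists of housekeeping genes that the account above leaves out were more often lower than higher in png eggs, beside 31.65% higher and 21.29% lower among all transcripts. Of 65 measured subunits of the respiratory chain and ATP synthase, 40 were lower and 2 higher, with a median of -0.23; COX5B, a subunit of cytochrome c oxidase, was at 236.5 and 238.3 RPKM in eggs and 169.8 and 166.2 RPKM in png eggs. The lower count was 22 and 17 without each png library in turn and 21 without the egg library made with cycloheximide. Of 31 proteasome subunits, 19 were lower and 1 higher, with a median of -0.20, and 4 and 9 were lower without each png library in turn. Prosbeta4, a subunit of the core particle, was at 513.3 and 520.5 RPKM in eggs and 377.6 and 366.0 RPKM in png eggs. Translation factors had 19 lower and 11 higher of 43, with 8 lower without either png library. In limma's fit with 12 libraries the members of these 3 lists lost their lower calls.

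Mitochondrial ribosomal proteins differed from the cytosolic ones: 23 of 74 were lower and 10 higher, with a median of -0.07. mRpL37 was among the larger rises, at 52.3 and 51.85 RPKM in eggs and 120.6 and 120.7 RPKM in png eggs. Its log2 difference was 1.20 ± 0.07 SE, with an adjusted p of 2.151e-07 in limma. Of 33 tRNA synthetases 5 were higher and 6 lower, and the 3 with the largest rises, SerRS-m, ValRS-m and IleRS-m, act in mitochondria. Chaperones had 3 higher and 8 lower of 24. By chromosome arm, between 30.1% and 34.3% of transcripts on the 5 large arms were higher and between 19.5% and 22.6% lower. Of the 40 measured transcripts nearest to png on the X chromosome, 12 were higher, 3 lower and none 2-fold apart in both states.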
